A study of Mus musculus with 4 samples.

Results

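Interferon response genes were followed in NF639 cells, a mouse mammary tumour line in which the ErbB2 oncogene drove the tumour of origin. The genes were fixed by name as 9 members: the signalling factors Stat2, Irf1, Irf7 and Irf9 and the interferon-stimulated genes Ifit1, Ifit3, Isg15, Gbp2 and Gbp3. Every probe set to which the platform annotation gives 1 of these symbols and no other was taken, which yielded 10 probe sets for 8 genes, out of 12394 genes with a probe set of their own. Isg15 had 0 such probe sets and is not measured here. The cells of interest were a pool of NF639 cells that resists EGCG (epigallocatechin gallate, a green tea polyphenol), with 2 arrays, and they were set against the original NF639 population, also with 2 arrays. Both groups are the same line and carry the same oncogene. The resistant cells are 1 pool, and the labels do not say whether EGCG was present when RNA was taken. RNA came from separate experiments, per the labels, but nothing ties a replicate number to an experiment, so the p-values measure the spread between these arrays. Those from the fit with the replicate number as a block, given below, rest instead on a spread shared by all probe sets of like signal.

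Interferons are secreted proteins that put cells into an antiviral state. Type I interferon activates a complex of STAT proteins with IRF9, which binds the interferon-stimulated response element (ISRE) in front of genes such as Ifit1, Ifit3 and Isg15. Interferon gamma activates a STAT dimer that binds the gamma-activated site (GAS), induces Irf1 and, with it, the guanylate-binding proteins. In tumour cells this programme is also known for raising antigen presentation and for restraining growth.

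Each probe set has 1 MAS5 signal per array, a linear intensity, and signals are compared only within a probe set. Differences are on the log2(signal + 3) scale, resistant minus original. Only probe sets whose mean log2 value over the 4 arrays corresponds to a signal of at least 49.1 were tested, 13576 in all, and each test is limma's with Benjamini-Hochberg adjustment over all of them. Among the members 5 probe sets of 4 genes passed that filter: 1 each for Stat2, Irf1 and Gbp3, and 2 for Gbp2. Of 11 epithelial marker genes with a probe set, Erbb2 alone passed the filter, and the defining markers Epcam, Cdh1 and Krt18 had signals of 1.4 to 25.5. Krt8, also under the filter, was brighter, with 62.9 and 27.5 in the resistant pool and 47.4 and 53.1 in the original population. Of 8 fibroblast markers 6 passed, all but the dim Lum and Thy1.

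All 7 probe sets of BioB, BioC and BioDn, bacterial transcripts spiked in as a check of hybridisation, were brighter on the array numbered 2 of each group. The ratio of array 2 over array 1 was 1.48 to 2.29 in the resistant pool and 1.39 to 2.11 in the original population. Between same-numbered arrays, resistant over original, it was 0.938 to 1.14. Differences between the groups are therefore also given within each replicate number.

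None of the 5 tested probe sets of Stat2, Irf1, Gbp2 and Gbp3 passed the test between the resistant pool and the original population. In RNA from bulk cultures, fewer expressing cells and less RNA per cell cannot be told apart. The count was 0 of 5 for limma at an adjusted p of 0.05 and 0 of 5 at an unadjusted p under 0.05. Over all tested probe sets 0.169% passed and 7.35% had an unadjusted p under 0.05, so a count of 0 among 5 is near the background. The arrays of the groups overlapped in each of the 5, and failed to overlap in 36% of all tested probe sets. All 5 were fitted lower in the resistant pool, with a median of -0.34 over the 4 genes against 0.02 over all 7510 genes tested. Between the arrays numbered 1 the median of the 4 genes was -0.41 and between those numbered 2 it was -0.26. Of the 5 probe sets 4 were lower in the resistant array of both numbers, all but Irf1, as were 29.9% of all tested probe sets. Leaving out 1 array leaves the numbers unbalanced between the groups, and the median was then 0.15 without original 1, 0.08 without resistant 2, -0.83 without original 2 and -0.71 without resistant 1. An exact permutation test of a single value in 2 against 2 arrays cannot give a two-sided p under 0.333.

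**Figure D1:**
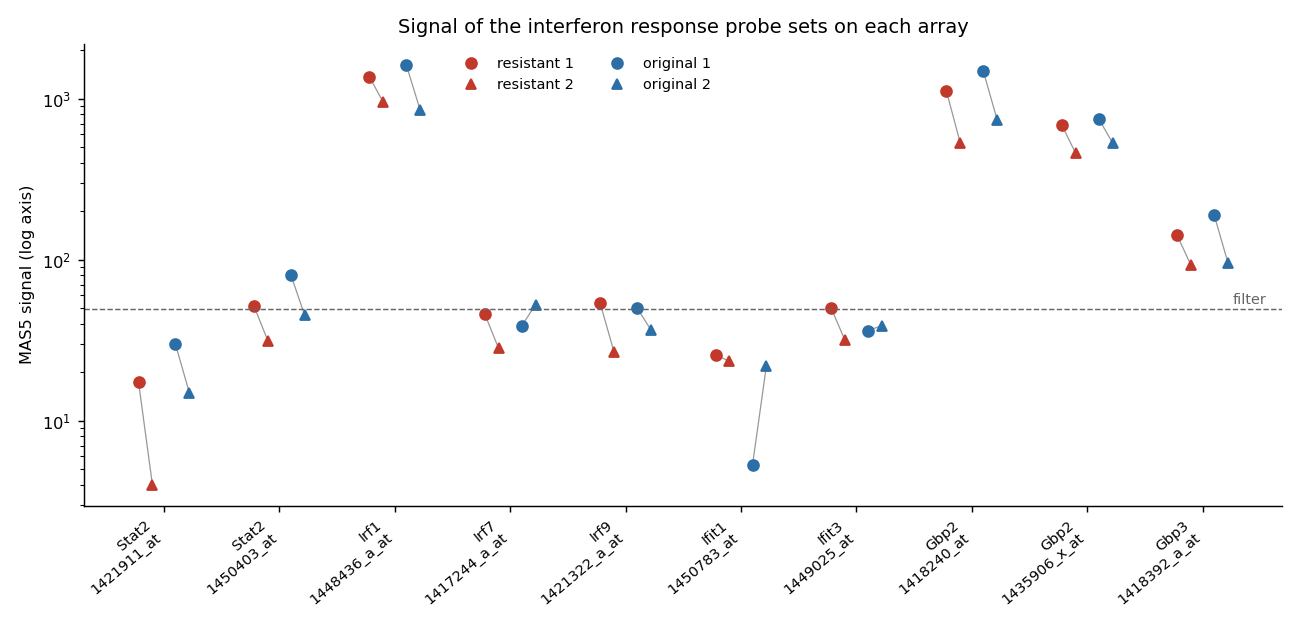
MAS5 signal (log axis) of the 10 interferon response probe sets on each array, with resistant arrays in red left of original arrays in blue. Circles are arrays numbered 1 and triangles arrays numbered 2, and a line joins the arrays of a group. The dashed line is the filter's signal of 49.1. The groups overlap in 9 of the 10 probe sets, and all 5 tested ones are lower on array 2 than on array 1 in both groups.

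Among the signalling factors, Irf1, an early interferon gamma target that itself switches on antiviral and antigen presentation genes, was measured well above the filter. Its signal was 1370.9 and 951.2 in the resistant pool, against 1621.7 and 851.9 in the original population. Both resistant values lay between the original ones, so the groups overlapped completely. Irf1 averaged 1161 ± 297 in the resistant pool and 1237 ± 544 in the original population (SD, n = 2 each). The log2 difference was -0.04 ± 0.288 (SE; limma adjusted p = 0.998), with a 95% interval from 1.60-fold lower to 1.51-fold higher. It was -0.24 between the arrays numbered 1 and 0.16 between those numbered 2.

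Stat2, the STAT protein that joins IRF9 in the type I interferon complex, was dim. Its probe set 1450403_at had signals of 51.4 and 31.4 in the resistant pool, against 80.3 and 45 in the original population. The higher resistant value lay above the lower original one, so the groups overlapped. The log2 difference was -0.55 ± 0.473 (SE; limma adjusted p = 0.887), with a 95% interval from 3.03-fold lower to 1.41-fold higher. Within the numbers it was -0.62 and -0.48, so the resistant array was the lower in each pair. The other Stat2 probe set, 1421911_at, was under the filter, with 17.3 and 4.0 in the resistant pool and 29.8 and 14.9 in the original population. It too was the lower in the resistant array of each number, and its groups overlapped.

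Irf7, the factor that amplifies type I interferon production, and Irf9, the DNA-binding partner of the STAT complex, were both under the filter and were not tested. Irf7 had signals of 45.9 and 28.1 in the resistant pool, against 38.7 and 52.6 in the original population. Irf9 had 53.6 and 26.7 in the resistant pool, against 50.2 and 36.5 in the original population. For both genes the groups overlapped, and the difference between same-numbered arrays was above 0 for number 1 (0.23 for Irf7, 0.09 for Irf9) and below 0 for number 2 (-0.84 for Irf7, -0.41 for Irf9).

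Gbp2 and Gbp3 encode guanylate-binding proteins, GTPases that interferon gamma induces and that attack the vacuoles of intracellular pathogens. These 2 genes were above the filter in all 3 of their probe sets, whereas Gbp2b, Gbp6 and Gbp8 of the same family were under it. Gbp2 probe set 1418240_at had signals of 1116.6 and 531.9 in the resistant pool, against 1482.4 and 739.8 in the original population. The first resistant value lay between the original ones and the second lay below both. The log2 difference was -0.44 ± 0.365 (SE; limma adjusted p = 0.883), with a 95% interval from 2.38-fold lower to 1.29-fold higher. It was of like size within each number, -0.41 and -0.47. With the replicate number as a block the unadjusted p was 0.013 and the adjusted p = 0.144 (limma), so this probe set did not pass there either. In that fit 5.23% of all tested probe sets passed and 0 of the 5. The block fit takes each spread from the trend over all probe sets, so its p-values do not measure a probe set's own spread. The other Gbp2 probe set, 1435906_x_at, is of the kind whose probes can also bind related transcripts. It had 686.1 and 458.6 in the resistant pool, against 751.6 and 531.6 in the original population, a log2 difference of -0.17 ± 0.253 (SE; limma adjusted p = 0.967) that was -0.13 and -0.21 within the numbers.

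Gbp3, a neighbour of Gbp2 on chromosome 3, had signals of 141.6 and 92.0 in the resistant pool, against 190.0 and 95.5 in the original population. The original values enclosed the first resistant one, and the array 2 values of the groups were nearly equal. The log2 difference was -0.24 ± 0.393 (SE; limma adjusted p = 0.974), with a 95% interval from 2.16-fold lower to 1.56-fold higher. It was -0.42 for the arrays numbered 1 and -0.05 for those numbered 2.

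**Figure D2:**
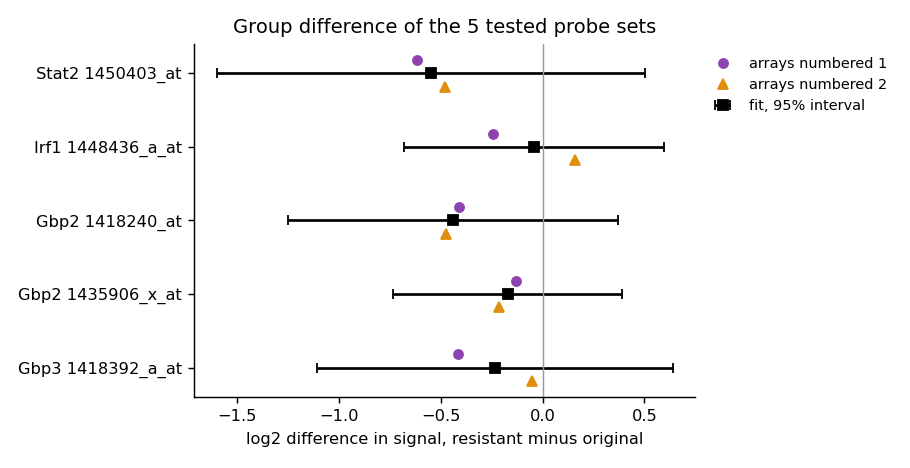
Log2 difference in signal, resistant minus original, of the 5 tested probe sets. Squares are limma estimates with 95% intervals, circles the difference between the arrays numbered 1 and triangles that between the arrays numbered 2. Each interval includes 0, and Irf1 has the numbers on opposite sides of 0.

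Ifit1 and Ifit3, which encode tetratricopeptide proteins that bind viral RNA and are among the most inducible targets of type I interferon, were under the filter and were not tested. Ifit1 had signals of 25.7 and 23.3 in the resistant pool, against 5.3 and 21.8 in the original population. It was the 1 member whose groups did not overlap, with both resistant arrays higher, as in 16.2% of all probe sets under the filter. Original 1 was the low array, and the other 3 lay close together. Ifit3 had 50.3 and 31.7 in the resistant pool, against 36.2 and 38.9 in the original population, with overlapping groups. When the filter was dropped so that all 10 probe sets were fitted, the smallest adjusted p among them was 0.891, for Stat2 1421911_at, and Ifit1 had a log2 difference of 0.94 ± 0.713 (SE; limma adjusted p = 0.898).

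For each of the 5 tested probe sets the arrays of a group differed from each other more than the group means did on the log2 scale. All 5 tested probe sets were lower on array 2 than on array 1 in both groups, against 38.6% of all tested probe sets. At least 1.5-fold lower in both groups were 3 of the 5, those of Stat2 and Gbp3 and Gbp2 1418240_at, against 3.22% of all. For Gbp2 1418240_at array 2 was 0.476 times array 1 in the resistant pool and 0.499 times in the original population. For Irf1 these ratios were 0.694 and 0.525, and for Gbp3 they were 0.650 and 0.503. Counting the probe sets under the filter too, 7 of the 10 were lower on array 2 in both groups, against 35.9% of all probe sets. Irf7, Ifit1 and Ifit3 were lower on array 2 in the resistant pool and higher on it in the original population. The members were not drawn at random, and the 2 probe sets of Gbp2 share a gene, so these shares are descriptions. After quantile normalisation the same 5 probe sets were still lower on array 2, with log2 differences of -0.42 to -0.99 in the resistant pool and -0.43 to -0.97 in the original population.

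**Figure D3:**
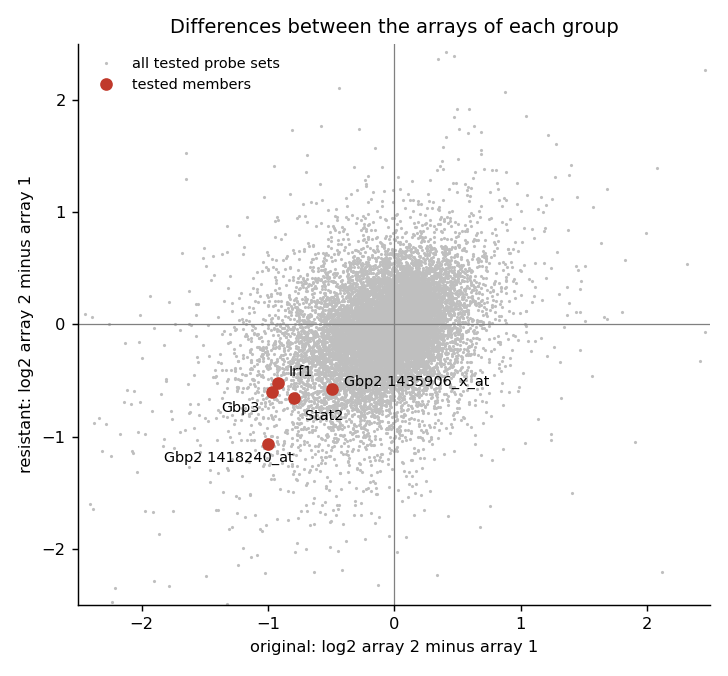
Log2 signal of array 2 minus array 1 in the resistant pool (vertical) against the same difference in the original population (horizontal). Grey points are all tested probe sets, of which 19 lie beyond the axes, and red points the 5 tested interferon response probe sets. All 5 lie in the lower left quadrant, where array 2 is lower in both groups.

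Among other measures, the spiked controls above were brighter on the arrays numbered 2 of both groups. The marker lists, dim genes included, were mixed. The summed signal of 12 leukocyte markers with a probe set, out of 14 listed, was 508.2 and 429.3 in the resistant pool and 582.1 and 379.4 in the original population, with 4 of them above the filter. Of the 12, 5 were lower and 2 higher on array 2 in both groups. All 4 above the filter, Cd68, Csf1r, Laptm5 and Lyz2, were among the lower ones. Cd68 had 124.6 and 71.8 in the resistant pool, against 97.6 and 81.9 in the original population. Csf1r had 102.6 and 46.5, against 103.8 and 59.7, Laptm5 59.8 and 59.2, against 76.9 and 39.7, and Lyz2 110 and 106.5, against 186.6 and 79.6. The 2 higher ones, Cd52 and Itgam, had signals of 2.2 to 19.8. The defining leukocyte gene Ptprc was dim throughout, at 12 and 7.4 in the resistant pool and 8.6 and 14.8 in the original population. The summed signal of the 8 fibroblast markers was 8054.6 and 6073.2 in the resistant pool and 7536.6 and 6328.0 in the original population. Of these 8, 4 were lower on array 2 in both groups and 1, the collagen gene Col1a2, was higher, with 2427.3 and 3228.5 in the resistant pool and 4171.7 and 4416 in the original population. The sums of the 11 epithelial markers, 437.7 and 485.6 in the resistant pool and 485 and 482.4 in the original population, and of the 7 endothelial markers, 63.5 and 49.9 in the resistant pool and 47.7 and 73.1 in the original population, did not move the same way in both groups. The part of each of these in the difference between arrays was not tested.

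The genes with the most similar profiles were picked by Euclidean distance between centred log2 values over the 4 arrays. All of them were lower on array 2 in both groups, which follows from how they were picked. Nearest to Stat2 were Gbp7 at a distance of 0.0534 and Hscb at 0.114, and nearest to Irf1 were Lgals3bp at 0.0428 and Them4 at 0.0593. Nearest to Gbp2 were Jak3 at 0.105 and Abca2 at 0.122, and nearest to Gbp3 were Myo6 at 0.119 and Ap2b1 at 0.124. With 4 arrays many profiles come close, and the likeness is a description only. Gbp7, another guanylate-binding protein, had 319.4 and 204.3 in the resistant pool, against 478.5 and 288 in the original population, and Lgals3bp had 616.8 and 435.6, against 715.5 and 387.7.

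Start-site sequence of the members is shown because the ISRE and GAS are the elements through which interferon signals reach them. RefSeq promoter windows (GRCm38.p6, 250 bases before to 50 after each start) were available for all 9 members, 12 windows in all, with 2 starts each for Irf1, Irf9 and Gbp3. The ISRE core was searched as GAAANNGAAA and the GAS as TTCNNNGAA, on both strands. The ISRE core was found in 6 of the 12 windows, of 6 genes, and in 3.44% of all 32851 mouse windows. The GAS was found in 1 of the 12, the upstream start of Irf1, and in 8.3% of all windows. No match was found for Irf7 and Irf9, which says only that these letters are not in these windows. The windows of Gbp2, Gbp3 and Irf1 are printed 5′ to 3′ with matches in capitals. In Gbp3 the 2 ISRE matches overlap.
Gbp2, chr3:142620413-142620712, plus strand: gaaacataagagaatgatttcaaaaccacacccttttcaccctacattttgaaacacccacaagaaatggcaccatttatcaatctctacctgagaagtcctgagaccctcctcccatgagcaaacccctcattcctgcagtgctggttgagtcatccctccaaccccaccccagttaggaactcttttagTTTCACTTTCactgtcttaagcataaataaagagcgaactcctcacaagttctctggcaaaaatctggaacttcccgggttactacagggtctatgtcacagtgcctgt
Gbp3, chr3:142559794-142560093, plus strand: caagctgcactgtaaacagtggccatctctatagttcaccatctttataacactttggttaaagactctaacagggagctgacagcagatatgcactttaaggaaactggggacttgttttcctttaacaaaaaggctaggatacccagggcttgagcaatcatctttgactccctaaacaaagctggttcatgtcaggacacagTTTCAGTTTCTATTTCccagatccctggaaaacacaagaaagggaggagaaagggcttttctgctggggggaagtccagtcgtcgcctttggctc
Irf1, chr11:53769764-53770063, plus strand: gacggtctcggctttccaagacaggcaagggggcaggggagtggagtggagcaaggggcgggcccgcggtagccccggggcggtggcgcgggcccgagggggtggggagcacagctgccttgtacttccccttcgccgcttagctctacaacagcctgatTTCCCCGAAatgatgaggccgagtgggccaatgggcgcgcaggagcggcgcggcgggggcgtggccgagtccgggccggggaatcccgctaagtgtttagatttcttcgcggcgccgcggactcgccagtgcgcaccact

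For Ifit1, Ifit3 and Stat2 the stretch that holds the ISRE matches is printed in the same way. Ifit1 and Ifit3 each hold 2 matches, between 104 and 76 bases before the start in Ifit1 and between 156 and 113 bases before it in Ifit3. The match in Stat2 lies farther out, from 222 to 213 bases before the start, whereas that of Gbp2 lies from 59 to 50 bases before it.
Ifit1, chr19:34640779-34640819, plus strand: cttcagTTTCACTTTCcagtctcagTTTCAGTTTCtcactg
Ifit3, chr19:34583367-34583422, plus strand: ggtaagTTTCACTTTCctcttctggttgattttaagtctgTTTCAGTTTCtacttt
Stat2, chr10:128270270-128270291, plus strand: ccctggTTTCAGTTTCctttcc
Stat2, Gbp2 and Gbp3, which carry the ISRE core, were lower on array 2 in both groups, whereas Ifit1 and Ifit3, which carry it too, were lower on array 2 in the resistant pool and higher on it in the original population. Irf1, with the GAS alone, and Irf9, with no match, were lower on array 2 in both groups. Irf7, also with no match, was lower on array 2 in the resistant pool and higher on it in the original population. Ifit1, Ifit3, Irf7 and Irf9 were dim and under the filter, and a relation between motif and array number was not tested.

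Upstream of the members, the receptors and kinases of interferon signalling did not pass the test. Of 14 interferon ligands and receptors listed, 11 had a probe set and 5 passed the filter, all of them receptor chains. The ligand probe sets, those of Ifna1, Ifna2, Ifna4, Ifnab, Ifnb1 and Ifng, were under the filter, with signals of 0.8 to 22.1. The type I receptor chain Ifnar1 had 351.0 and 318.5 in the resistant pool, against 443.8 and 312.9 in the original population. Ifnar2 had 821.9 and 836.3, against 881.2 and 725.3. For the interferon gamma receptor, Ifngr1 had 536.2 and 702.6 in the resistant pool, against 709.7 and 528.3 in the original population, and Ifngr2 had 248.5 and 427.3, against 380.7 and 385.3. All 5 overlapped between the groups, as did 4722 of all 7510 genes tested. Their median log2 difference was 0.00, at 0.19 without original 1 and -0.21 without original 2.

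Of 10 JAK-STAT and IRF factors tested, 0 passed, against 0.226% of all genes, and the arrays did not overlap for 4 higher and 1 lower, against 19.9% higher and 17.2% lower of all genes. The receptor-bound kinase Jak1 had 1137.4 and 1096.9 in the resistant pool, against 1024.6 and 886.0 in the original population. Tyk2, its partner at the type I receptor, had 226.1 and 162.0, against 236.7 and 143.3. Irf2, an antagonist of Irf1, had 54.6 and 85.7, against 40.3 and 67.5, and Irf3, which starts interferon transcription after viral sensing, had 466.4 and 524.5, against 488.1 and 491.5. Tyk2, Irf2 and Irf3 overlapped between the groups, whereas Jak1 was higher on both resistant arrays by a log2 difference of 0.23 ± 0.177 (SE; limma adjusted p = 0.877), though its 2 other tested probe sets overlapped and 1 of them was fitted lower. The smallest unadjusted p-values belonged to Stat3, which carries interleukin-6 family signals, at a log2 difference of 0.51 ± 0.197 (SE; limma adjusted p = 0.580), and to Nmi, a partner of STAT proteins, at -0.53 ± 0.229 (SE; limma adjusted p = 0.649).

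Of 11 feedback inhibitors tested, 0 passed, against 0.226% of all genes. Socs3, which blocks JAK kinases at cytokine receptors, had signals of 1185.8 and 674.4 in the resistant pool, against 531.5 and 473.9 in the original population. Both resistant arrays lay above both original ones. The log2 difference was 0.83 ± 0.259 (SE; limma adjusted p = 0.416), at 1.15 and 0.50 within the numbers. All 3 of its tested probe sets were higher without overlap, with log2 differences of 0.61 to 0.83. With the replicate number as a block the brightest one passed (limma adjusted p = 0.000630), as did 5.77% of all genes, and 2 of the 3 passed in all. That p-value does not measure the spread of Socs3 itself, as stated above for the block fit. Socs1, its relative that interferon gamma induces, had 62.4 and 133.0 in the resistant pool, against 59.2 and 109.2 in the original population, with overlapping groups. Usp18, which removes ISG15 from proteins and dampens the type I receptor, was under the filter, with 23.9 and 21.6 in the resistant pool and 4.2 and 22.5 in the original population. Of 11 nucleic acid sensing genes tested, 0 passed, against the same 0.226% of all genes. Their median log2 difference was -0.06, or 0.24 without resistant 2.

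Type I interferon effectors were mixed. Of 24 tested, 0 passed, against 0.226% of all genes. Of the 24, 15 were fitted below 0 and 9 above it, and the median log2 difference was -0.19, or 0.04 without resistant 2. The arrays did not overlap for 8 lower and 4 higher of the 24, against 17.2% lower and 19.9% higher of all genes. The lower ones with the smallest unadjusted p were Isg20, an RNA exonuclease (-0.64 ± 0.244, SE; limma adjusted p = 0.579), Plscr1, a phospholipid scramblase (-0.57 ± 0.223, SE; limma adjusted p = 0.589), and Tor3a, an interferon-responsive torsin ATPase (-0.67 ± 0.264, SE; limma adjusted p = 0.589). With the replicate block 1 of the 24 passed, Isg20 (limma adjusted p = 0.0383), against 5.77% of all genes. Isg20 had 292.6 and 382.9 in the resistant pool, against 448.2 and 607.6 in the original population. As with the members, 15 of the 24 were lower on array 2 in both groups, against 37.7% of all genes. Ifit2, a relative of Ifit1 and Ifit3, was among them, with 262.3 and 125.7 in the resistant pool and 219.0 and 117.9 in the original population. The pattern was not particular to these effectors. It held for 7 of 11 nucleic acid sensing genes, 6 of 10 JAK-STAT and IRF factors and 6 of 11 feedback inhibitors. In the remaining lists it held for 2 of 5 receptor chains, 3 of 5 GTPases and chemokines and 3 of 9 antigen presentation genes.

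**Figure D4:**
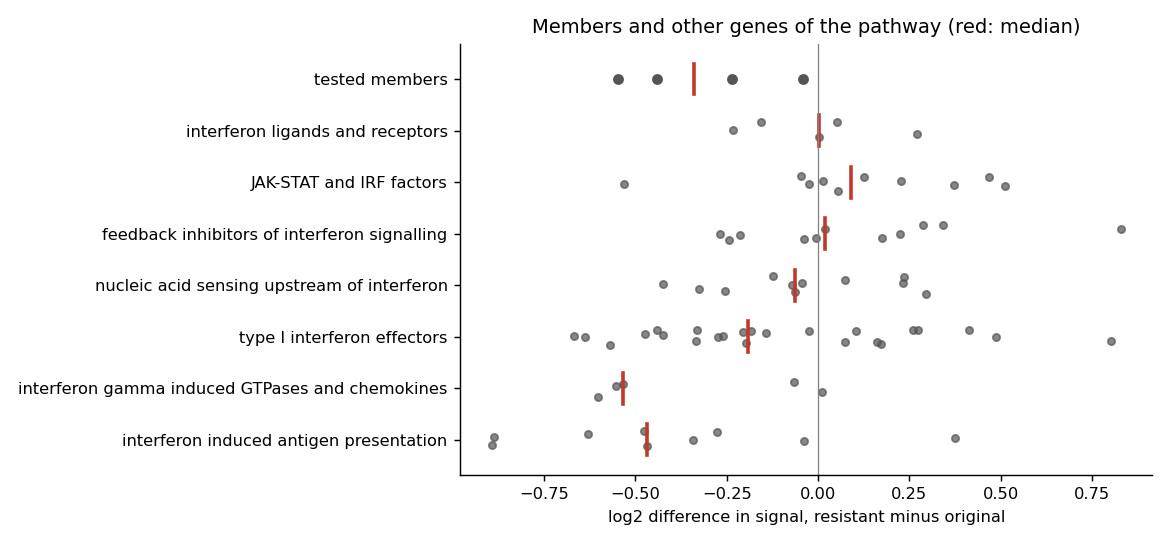
Log2 difference in signal, resistant minus original, of the 4 tested member genes and of the tested genes in 7 lists of the interferon pathway. Each point is a gene and each red bar the median of its list. The lists lie on both sides of 0, and none of these genes passed limma over all genes. At an unadjusted limma p under 0.05 there were 2 of 10 JAK-STAT and IRF factors and 1 of 11 feedback inhibitors. There were also 3 of 24 type I effectors and 4 of 9 antigen presentation genes, and 0 in the members and the remaining lists. Of all 7510 genes tested, 296 higher and 295 lower ones had such a p.

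Of 22 listed GTPases and chemokines that interferon gamma induces, as it does Gbp2 and Gbp3, 15 had a probe set and 10 of these were under the filter. Of the 5 tested 0 passed, against 0.226% of all genes, and the median log2 difference was -0.54. All 5 overlapped between the groups, as did 4722 of all 7510 genes tested. Without original 1 the median was 0.11. Cxcl10, a chemokine for T cells, had 181.1 and 130.2 in the resistant pool, against 388.0 and 141.1 in the original population, and the GTPase gene Ifi47 had 193.4 and 172.3, against 426.8 and 169.2. In both genes original 1 was the array that stood above the other 3. Of 9 antigen presentation genes tested 0 passed, against 0.226% of all genes. Without overlap 6 were lower and 1, B2m, was higher, against 17.2% lower and 19.9% higher of all genes. Their median log2 difference was -0.47, or -0.23 without original 1, and 8 of the 9 were fitted below 0. Psmb8, a subunit of the immunoproteasome, had 698.1 and 714.6 in the resistant pool, against 1425.7 and 1200 in the original population, a log2 difference of -0.89 ± 0.181 (SE; limma adjusted p = 0.128). Tapbp had 3119.9 and 3735.4, against 5673.3 and 4922.7 (-0.63 ± 0.174, SE; limma adjusted p = 0.326). Psmb10 had 919.3 and 992.4, against 1331.2 and 1325 (-0.48 ± 0.170, SE; limma adjusted p = 0.548). With the replicate block 3 of these 9 passed, Psmb8 and Tapbp lower and B2m higher, against 5.77% of all genes. Of the tested probe sets, 2 of 2 passed there for Tapbp and 1 of 2 for B2m.

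Over the 69 probe sets of the lists that were under the filter and so not tested, 15 were lower and 7 higher in the resistant pool without overlap, against 16.5% lower and 16.2% higher of all probe sets under it. The genes named here from among them were chosen after their values were seen. Oas1a, which makes the oligoadenylates that activate RNase L, had signals of 14.4 and 8.5 in the resistant pool, against 124.4 and 111.9 in the original population. The original arrays were alike and both far above the resistant ones. Its original signals are above 49.1, but its mean log2 value fell under the filter because the resistant signals are low. With the filter on the arithmetic mean signal it entered and passed narrowly (limma adjusted p = 0.0498), and that filter admits such a gene only through the group where it is high. With no filter it did not pass (limma adjusted p = 0.219). Oas2, of the same family, had 4.8 and 13.3 in the resistant pool, against 49.6 and 30.8 in the original population, and Ube2l6, the conjugating enzyme for ISG15, had 24.1 and 17.0, against 75.5 and 47.5. Higher on both resistant arrays were Oas3, a further family member, with 21.6 and 11.4, against 5.0 and 7.9, and Zbp1, a sensor of nucleic acids in the Z form, with 10.5 and 21.6, against 3.1 and 2.3, while its other probe set overlapped. The Oas3 and Zbp1 values printed here are near the floor, as the 10th percentile of all signals was 3 and the 25th was 17.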

How the data were processed

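The deposited values are MAS5 signal intensities, 1 per probe set and array, from Affymetrix Mouse 430A 2.0 arrays, as the authors deposited them and per the submitters' processing notes; MAS5's version is not stated in the labels. The 2% trimmed mean was 500.2 on each array, so a global change in RNA content would have been scaled away. Depth is not defined for arrays; their number limits the precision. Genes were named from the platform annotation: of 22626 probe sets that are not controls, 20380 had 1 symbol, 691 several and 1555 none.

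The arrays' 2% trimmed means were made equal and log2(signal + 3) was taken, 3 being the rounded 10th percentile of all signals. Probe sets under the 40th percentile of the mean log2 value (a signal of 49.1) were left out, and limma 3.58.1 in R 4.3.3 (lmFit, eBayes with trend) fitted resistant minus original over 13576 probe sets, with a Benjamini-Hochberg threshold of 0.05. Its steps were tested on simulated arrays with independent values. That test does not cover deviations shared by same-numbered arrays. A gene took its brightest retained probe set. The members and lists were chosen with earlier results of these data known. All member probe sets are reported. From each list the rule named called genes, or those with the smallest unadjusted p under 0.05 whose arrays did not overlap, and a fixed set of receptors, kinases and inhibitors, of which 1 gene is not reported here. Other genes were named after their values were seen. Alternatives were quantile normalisation, other pseudocounts and filters, no variance trend, the replicate block and leaving out each array; the filter on the arithmetic mean was added after the data were seen.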

Additional observations from a re-analysis of the deposited data

How the results depend on the processing

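None of the member probe sets passed in the fit as reported, and the count stayed at 0 in all 12 alternatives, including the fit with the replicate block. The number of probe sets called over the whole array depended on the setting. It was 23 as reported, 8 after quantile normalisation, 5 with no filter, 10 with the filter at the 60th percentile, 0 with limma without a trend (922 at an unadjusted p under 0.05), 710 with the replicate block, and 68 to 111 when 1 array was left out. The fitted directions of Irf1, Gbp2 and Gbp3 turned when original 1 or resistant 2 was left out, which leaves the replicate numbers unbalanced between the groups. Without original 1 the log2 differences were 0.42 for Irf1, 0.06 and 0.08 for Gbp2 1418240_at and 1435906_x_at, and 0.25 for Gbp3, and without resistant 2 they were 0.22, 0.090, 0.12 and 0.07. Leaving out each array in turn gave -0.50 to 0.42 for Irf1, -0.97 to 0.090 and -0.46 to 0.12 for the Gbp2 probe sets, and -0.72 to 0.25 for Gbp3. Stat2 stayed below 0 in the 11 alternatives that measured it, from -0.95 to -0.15. The median of the member genes ran from -0.83 to 0.15 over all alternatives.

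With the replicate block, which leaves 1 residual degree of freedom, the genes called were 1 feedback inhibitor, 1 type I effector and 3 antigen presentation genes, against 0 of each without it. In that fit limma's prior degrees of freedom were infinite, so its p-values use the trend over all probe sets and not each gene's own spread. With the filter on the arithmetic mean, chosen after seeing the data, the type I effectors had 1. The cause of these changes was not tested. The deviations of same-numbered arrays from their group means correlated at 0.352 over the 13576 tested probe sets, which are not independent; no label says that the numbers pair the arrays, so the block result is given as an alternative only. With 2 arrays a group, the printed intervals are wide and the differences inside them are not excluded. Of the 10 member probe sets, 5 were too dim to test.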
